A study of Rattus norvegicus with 32 samples.

Results

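The antioxidant defence genes described here are Hmox1, Nqo1, Gclc, Gclm, Srxn1, Txnrd1, Sod1, Sod2, Cat and Nfe2l2, a list of 10 genes given by name. Counts were present for 9 of the 10 among the 28914 genes of the files. Srxn1, the gene of sulfiredoxin, had no counts under that name, so that only its promoter window was searched. The rats were adult male Sprague–Dawley animals that received 4 intraperitoneal injections of methamphetamine (METH, 10 mg/kg each) or of saline (Sal), spaced 2 h apart, and tissue was taken 24 h after the last one. RNA of the nucleus accumbens (NAc), the dentate gyrus (DG), Ammon's horn of the hippocampus (CA) and the subventricular zone (SVZ) was sequenced after removal of ribosomal RNA. Each region had 4 Sal and 4 METH samples, which gives 32 samples. No genetic modification and no agent other than METH or saline is named for any group. Each region is bulk tissue, in which fewer cells of a type and less RNA per cell cannot be told apart.

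NRF2, the protein of Nfe2l2, is a transcription factor that is bound by KEAP1 and degraded in resting cells. When oxidants or electrophiles modify KEAP1, NRF2 accumulates, pairs with a small MAF protein and binds antioxidant response elements near genes that make glutathione, reduce thioredoxin and detoxify quinones and haem. Superoxide dismutases turn superoxide into hydrogen peroxide, which catalase and the peroxiredoxins then remove. High doses of METH are known to release dopamine, whose oxidation is a source of reactive oxygen species in dopamine-rich tissue such as the striatum.

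The windows of 250 bases before the RefSeq start sites (assembly GRCr8) of 5 of the genes are shown, because antioxidant response elements are the sequence by which NRF2 acts on its targets. Nfe2l2 and Nqo1 are the members at an unadjusted p under 0.05 in the mean METH effect over the regions below, and neither was called. Gclm, Txnrd1 and Sod2 are the members whose window holds the core letters searched. Gclc, whose METH samples lay below Sal in the CA, had no match and is not shown. Capitals mark a match to TGACNNNGC, searched on both strands, which reads as its reverse complement where the match lies on the other strand, and sequences run 5′ to 3′ on the strand of the gene.
Nfe2l2, chr3:81029000-81029249, minus strand: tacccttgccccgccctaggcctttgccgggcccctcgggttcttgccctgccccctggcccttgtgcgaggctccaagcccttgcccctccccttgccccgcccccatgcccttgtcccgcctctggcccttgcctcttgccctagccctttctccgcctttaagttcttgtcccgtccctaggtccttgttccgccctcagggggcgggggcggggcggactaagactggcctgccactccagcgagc
Nqo1, chr19:52220268-52220517, minus strand: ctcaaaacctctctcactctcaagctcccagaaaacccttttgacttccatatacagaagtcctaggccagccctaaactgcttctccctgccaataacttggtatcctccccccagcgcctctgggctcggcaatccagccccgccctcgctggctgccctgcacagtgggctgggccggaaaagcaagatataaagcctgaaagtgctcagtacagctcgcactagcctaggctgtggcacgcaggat
Gclm, chr2:213031885-213032134, plus strand: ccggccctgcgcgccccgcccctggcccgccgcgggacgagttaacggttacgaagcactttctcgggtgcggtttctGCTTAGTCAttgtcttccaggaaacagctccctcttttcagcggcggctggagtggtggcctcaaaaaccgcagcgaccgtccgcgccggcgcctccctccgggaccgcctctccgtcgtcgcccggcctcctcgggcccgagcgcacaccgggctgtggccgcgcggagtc
Txnrd1 (second of 2 windows), chr7:22755905-22756154, minus strand: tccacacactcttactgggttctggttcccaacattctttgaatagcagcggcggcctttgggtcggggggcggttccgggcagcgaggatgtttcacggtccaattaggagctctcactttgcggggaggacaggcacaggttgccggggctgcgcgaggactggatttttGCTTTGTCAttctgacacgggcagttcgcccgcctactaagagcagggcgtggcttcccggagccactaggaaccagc
Sod2, chr1:50050169-50050418, minus strand: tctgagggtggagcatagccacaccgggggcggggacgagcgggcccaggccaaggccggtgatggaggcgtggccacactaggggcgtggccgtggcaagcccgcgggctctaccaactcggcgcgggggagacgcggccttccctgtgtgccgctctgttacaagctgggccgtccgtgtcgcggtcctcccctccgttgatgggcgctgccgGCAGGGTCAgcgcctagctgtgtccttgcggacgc
TGACNNNGC stood in 3373 of 33469 windows of all genes (10.1%), and in the windows of 3 of the 9 members with one. The match began at position -172 in Gclm, -78 in Txnrd1 and -35 in Sod2, each on the strand opposite to the gene. The longer form TGANTCAGC, which can overlap the first motif, stood in 323 windows (0.965%) and in none of the 10 windows of the members. A match of these letters is a description and not a binding site, and no match says only that the letters are not in these 250 bases. Hmox1 had no window in the table.

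The loci are given as in the count files (rn6). Nfe2l2 lies on chr3:62497571-62524996 and Cat on chr3:93379874-93412058, Hmox1 on chr19:14508616-14515456 and Nqo1 on chr19:38422164-38437180. Gclc lies on chr8:85059051-85097468, Gclm on chr2:225827504-225847874, Txnrd1 on chr7:26946125-26984400, Sod1 on chr11:30363280-30368862 and Sod2 on chr1:47914759-47921587. The counts cover the exons of each gene, from 656 bases for Sod1 to 3430 for Txnrd1, and no exon of the 9 genes overlaps an exon of another gene in the files. Since reads were counted without strand, antisense transcripts would be counted with the gene.

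The samples held 11094002 to 21869773 counted reads (median 14533166.5), and 1 read corresponded to 0.0442 to 0.0934 CPM (counts scaled to a common total by upper-quartile library sizes). Counts per sample were 31 to 113 for Hmox1, 56 to 266 for Nqo1, 185 to 643 for Nfe2l2 and at least 202 for each other member, so Hmox1 and Nqo1 carry the largest counting error. The 4 samples of a group differed well beyond counting noise in all 48 pairs (chi-square per gene 16.4 to 191), and no sample was merged with another. The study's methods describe dissection of the regions from the same brains, and library numbers in the file headers recur across the NAc, DG and CA, once in each. The labels do not say which libraries share a rat, and p-values measure the spread between these samples. Some libraries stood apart. The summed level of 5 striatal medium spiny neuron markers, which the NAc should express, was 84.0 CPM in METH replicate 3 of the NAc and 852 to 4566 CPM in the other 7 NAc samples. In the DG, which should lack these markers, it was 1016 CPM in Sal replicate 3 and 67.1 to 209 CPM in the others. The sum of 4 dentate granule neuron markers overlapped between the DG (95.2 to 516 CPM) and the CA (120 to 559 CPM), and the choroid plexus sum ran from 1.77 to 7714 CPM over all samples. SVZ Sal replicate 1 differed from the other SVZ Sal samples with a chi-square per gene of 182 to 191, against 35.1 to 58.3 among those, and its medium spiny neuron sum was 159 CPM against 1773 to 3372 CPM. In the SVZ METH samples that sum ran from 117 to 1587 CPM. Cldn5, an endothelial marker, was at 0 in every library, and Fibcd1, a marker of CA pyramidal neurons, was at 0 in the NAc, DG and SVZ. Library numbers in the file headers place replicates 1 and 2 of the DG against their labels, since DG Sal carried numbers that belong to METH in the NAc and CA, and DG METH carried numbers that belong to Sal there. The 4 METH libraries of the SVZ carried 2 numbers, each shared by a pair of libraries. The sequencing run of a library is inferred here from the name of its aligned file. CA Sal replicates 1 and 2 are named merged there and were taken as 1 run. The study's methods give 2 sequencing batches for the RNA. By file name all 8 SVZ libraries came from 1 run, while in the other regions Sal and METH samples were spread unequally over runs. Runs that held both treatments were 1 in the NAc (Sal replicates 3 and 4, METH replicates 1 and 2) and 2 in the CA (Sal replicates 3 and 4, all METH samples), so that fits with the run as a covariate rest on these libraries. In the DG only Sal replicate 3 shared a run with METH samples (replicates 1 and 2), so that adjusting for the run leaves 1 Sal against 2 METH samples there.

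No gene was called in any region by edgeR at an FDR under 0.01 with a fold change above 1.5 (0% of 14771, 14800, 14612 and 15579 genes tested in the NAc, DG, CA and SVZ), and no member was called. By the same limits DESeq2 called 3, 183, 10 and 2 genes, and 0 members. The smallest FDR over all genes was 0.999, 0.0465, 0.0887 and 0.232 in this order. Members are therefore described below by their values, their edgeR estimates and a two-sided exact permutation test of the 4 METH against the 4 Sal samples, and no difference between METH and Sal is written as a rise or a fall. The exact permutation test can give no p below 0.0286 with 4 samples against 4, a value it reaches wherever the groups do not overlap, and 36 such tests of members were made. At an unadjusted p under 0.05 in edgeR stood 0 of 9 members in the NAc, 0 in the DG, 3 in the CA and 1 in the SVZ. The same threshold was passed by 3.39% of all genes tested in the NAc, 12.8% in the DG, 7.16% in the CA and 2.58% in the SVZ. Without SVZ Sal replicate 1 the share in the SVZ was 16.4%, and the members under it were Nfe2l2 and Gclm. The 3 in the CA were Nfe2l2, Nqo1 and Gclc, and the 1 in the SVZ was Nfe2l2. Those 4 of the 36 combinations of member and region were also the ones in which the 4 METH and 4 Sal values did not overlap, which held for 2.3% of all genes in the NAc, 6.8% in the DG, 4.44% in the CA and 1.69% in the SVZ.

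**Figure D1:**
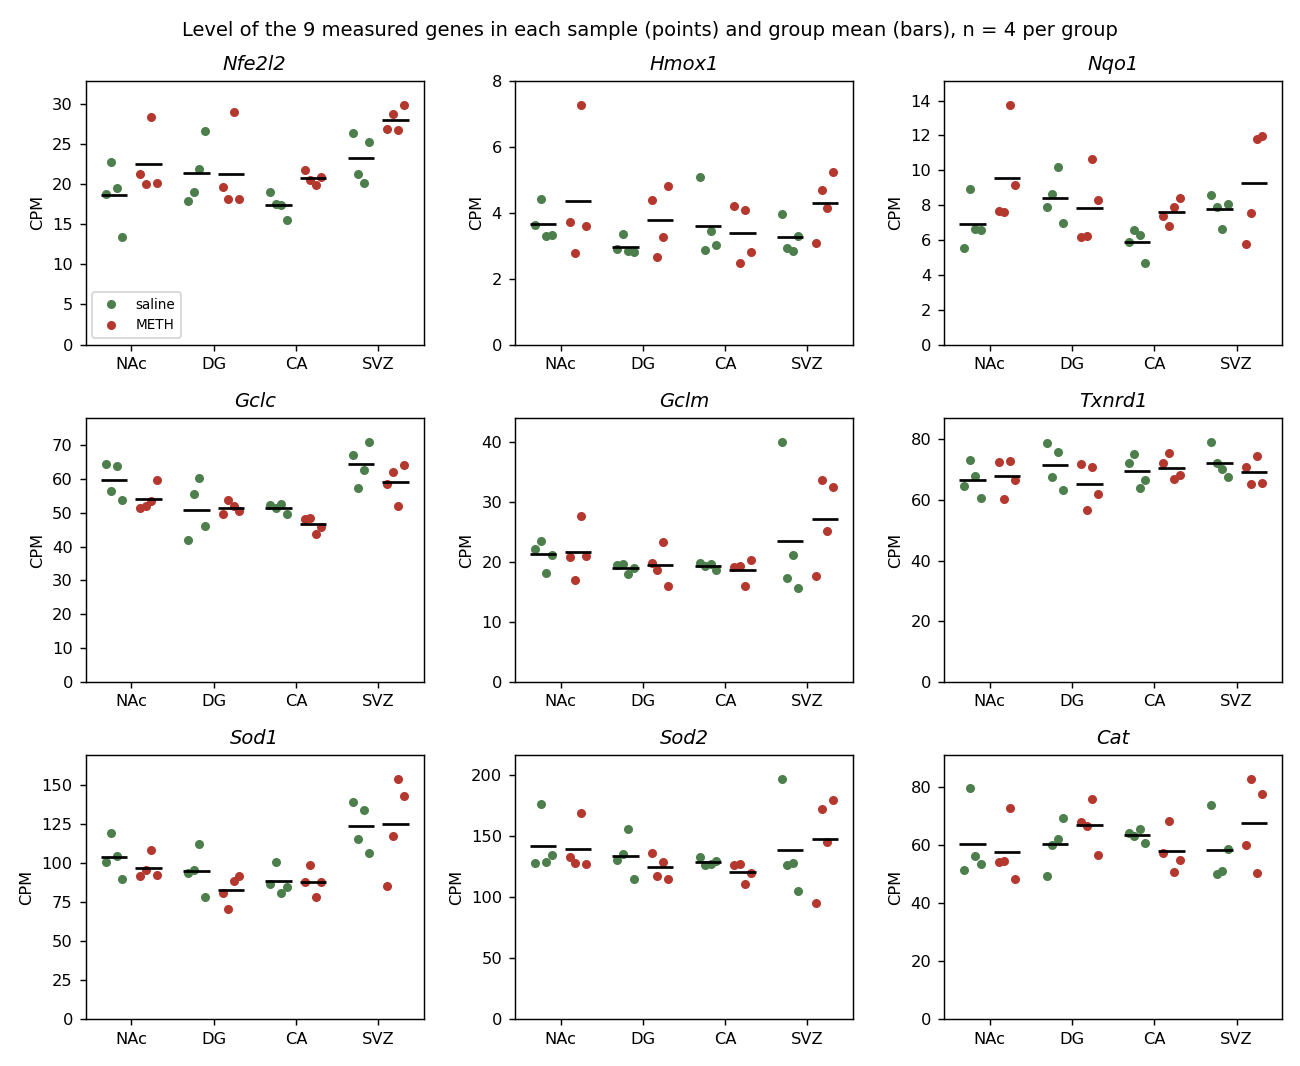
Level of each measured gene in CPM (vertical axes, from 0) in every Sal (green) and METH (red) sample of the 4 regions, with the group mean as a bar, n = 4 per group. METH points of Nfe2l2 lie above the Sal points in the CA and SVZ, and those of Nqo1 in the CA, while the Gclc points of METH lie below Sal in the CA.

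Nfe2l2 encodes NRF2 itself, the transcription factor described above. In the CA its level was 19.0, 17.5, 17.3 and 15.6 CPM in the 4 Sal samples and 21.7, 20.5, 19.9 and 20.8 CPM in the 4 METH samples. Every METH sample was above every Sal sample. The log2 fold change was 0.26 (SE 0.087, 95% interval 0.06 to 0.45), that is 1.20-fold, with FDR = 0.669 in edgeR and p = 0.0286 in the exact permutation test. It was 0.34 with the sequencing run as a covariate, again with an unadjusted p under 0.05, and that threshold was also passed without each CA sample in turn. In the SVZ the levels were 26.3, 21.3, 20.1 and 25.2 CPM for Sal and 26.8, 28.7, 26.8 and 29.8 CPM for METH. The groups did not overlap here either, but the lowest METH sample (26.77 CPM) was barely above the highest Sal sample (26.32 CPM). METH was 0.28 higher on the log2 scale (SE 0.12, 95% interval 0.02 to 0.55), with FDR = 0.979 in edgeR and p = 0.0286 in the exact permutation test. When the SVZ METH libraries that share a number were summed, the difference was 0.26 and no longer at an unadjusted p under 0.05. The same held when any 1 of 6 SVZ samples was left out (Sal replicates 2 and 3, METH replicates 1 to 4), with log2 fold changes of 0.21 to 0.30. The sum of 7 oligodendrocyte markers, given with Gclm below, was highest in METH replicates 4 and 2, which also had the highest Nfe2l2 values, and among the Sal samples both were highest in replicate 1. All 7 markers had positive log2 fold changes in the SVZ (median 0.83, none at an unadjusted p under 0.05), and their part in the Nfe2l2 values was not tested.

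In the NAc Nfe2l2 stood at 18.7, 22.7, 19.5 and 13.4 CPM in Sal and at 21.3, 20.0, 28.4 and 20.2 CPM in METH samples. The groups overlapped, and the highest value was that of METH replicate 3, the library with few medium spiny neuron markers and with the highest oligodendrocyte sum of the NAc METH samples (12890 against 6294 to 7211 CPM). In the NAc Sal samples that sum was 12414, 11201, 7404 and 4185 CPM, which is not the order of Nfe2l2. The difference of Nfe2l2 was 0.30 on the log2 scale (SE 0.18, FDR = 0.999 in edgeR, p = 0.229 in the exact permutation test), and 0.16 without METH replicate 3. In the DG the levels were 17.9, 18.9, 21.9 and 26.5 CPM in Sal and 19.6, 18.1, 28.9 and 18.1 CPM in METH samples. A single METH sample, replicate 3, was above all Sal samples and the other METH samples lay among the lower Sal values. The oligodendrocyte sum was 3466, 6046, 8002 and 12510 CPM in the DG Sal samples, in the same order as Nfe2l2, and 3075, 8985, 14842 and 5127 CPM in the METH samples, with replicate 3 again the highest. Its part in these values was not tested. Here edgeR gave a log2 fold change of 0.00 (SE 0.21, 95% interval -0.48 to 0.49), and -0.05 without replicates 1 and 2 of both groups, so that a difference of up to 1.40-fold in either direction would not have been told from none at this spread.

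Nqo1 encodes NAD(P)H quinone dehydrogenase, which reduces quinones in one step and is among the most used read-outs of NRF2 activity. In the CA its level was 5.91, 6.55, 6.29 and 4.71 CPM in Sal and 7.39, 6.80, 7.87 and 8.44 CPM in METH samples. All METH samples were above all Sal samples. The log2 fold change was 0.38 (SE 0.14, 95% interval 0.05 to 0.70), that is 1.30-fold, with FDR = 0.669 in edgeR and p = 0.0286 in the exact permutation test. It was 0.29 to 0.44 when 1 CA sample was left out, and an unadjusted p under 0.05 was lost without Sal replicate 4, METH replicate 3 or METH replicate 4. With the sequencing run as a covariate it was 0.48, at an unadjusted p under 0.05. Values of the NAc were 5.55, 8.93, 6.61 and 6.58 CPM in Sal and 7.66, 7.59, 13.7 and 9.14 CPM in METH samples. METH replicate 3 was again the highest sample, and the groups overlapped. METH was 0.49 higher on the log2 scale (SE 0.24, 95% interval -0.06 to 1.04, FDR = 0.999 in edgeR, p = 0.143 in the exact permutation test). Without METH replicate 3 this was 0.25, and 0.23 with the sequencing run as a covariate.

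In the SVZ Nqo1 stood at 8.57, 7.91, 6.63 and 8.09 CPM in Sal and at 5.80, 7.58, 11.8 and 12.0 CPM in METH samples. The METH samples held both the lowest and the highest values of the region, with replicates 3 and 4, which share a library number, above all others. The difference was 0.27 on the log2 scale (SE 0.25, FDR = 0.979 in edgeR, p = 0.486 in the exact permutation test). It was 0.11 to 0.44 when 1 SVZ sample was left out, never at an unadjusted p under 0.05. In the DG the levels were 7.88, 8.61, 10.2 and 7.0 CPM in Sal and 6.20, 6.22, 10.7 and 8.29 CPM in METH samples. METH replicates 1 and 2 were the 2 lowest of the region, and their library numbers are among those that go against the labels. The log2 fold change was -0.08 (SE 0.22, FDR = 0.936 in edgeR, p = 0.543 in the exact permutation test) and 0.13 without replicates 1 and 2 of both groups.

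Hmox1 encodes haem oxygenase, an enzyme that is induced strongly by oxidative and haem stress in many cells. Its level was low throughout, 2.48 to 7.28 CPM over the 32 samples. In the NAc it was 3.62, 4.43, 3.31 and 3.33 CPM in Sal and 3.74, 2.78, 7.28 and 3.60 CPM in METH samples. The single high value was METH replicate 3, the other METH samples lay within or below the Sal range, and the log2 fold change of 0.27 (SE 0.31) became -0.11 without that library. In the SVZ Hmox1 was 3.96, 2.95, 2.86 and 3.29 CPM in Sal and 3.08, 4.69, 4.16 and 5.24 CPM in METH samples. In the SVZ 3 of 4 METH samples were above all Sal samples, with a log2 fold change of 0.41 (SE 0.21, 95% interval -0.08 to 0.90, FDR = 0.979 in edgeR, p = 0.114 in the exact permutation test). In the DG the values were 2.90, 3.35, 2.84 and 2.82 CPM in Sal and 4.40, 2.67, 3.27 and 4.81 CPM in METH samples, a log2 fold change of 0.36 (SE 0.22, FDR = 0.560 in edgeR). It was 0.23 to 0.49 when 1 DG sample was left out, at an unadjusted p under 0.05 only without METH replicate 2. In the CA the values were 5.10, 2.88, 3.46 and 3.03 CPM in Sal and 4.21, 2.48, 4.10 and 2.81 CPM in METH samples, a log2 fold change of -0.09 (SE 0.26). The upper bounds of the 95% intervals were 1.96-fold in the NAc, 1.83-fold in the DG, 1.40-fold in the CA and 1.87-fold in the SVZ, so a 2-fold higher level of Hmox1 in METH samples lay outside all 4 intervals.

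Gclc and Gclm encode the catalytic and the modifier subunit of glutamate-cysteine ligase, the enzyme of the first step of glutathione synthesis. In the CA Gclc stood at 52.4, 51.5, 52.7 and 49.5 CPM in Sal and at 48.3, 48.6, 43.8 and 45.9 CPM in METH samples. Every METH sample was below every Sal sample, by less than 1 CPM at the nearest pair. The log2 fold change was -0.14 (SE 0.063), 0.906-fold, with FDR = 0.698 in edgeR and p = 0.0286 in the exact permutation test. The unadjusted p of edgeR was just under 0.05, and stayed so in 1 of the 8 fits that left out a CA sample, the one without Sal replicate 4. These 8 fits gave log2 fold changes of -0.16 to -0.12. With the sequencing run as a covariate it was -0.13, without passing that threshold. In the NAc the level of Gclc was 64.6, 56.4, 63.9 and 53.9 CPM in Sal and 51.6, 52.0, 53.6 and 59.8 CPM in METH samples. In the SVZ it was 67.1, 57.4, 62.7 and 70.9 CPM in Sal and 58.6, 62.1, 51.9 and 64.2 CPM in METH samples. The groups overlapped in both regions, and the log2 fold change was -0.11 in each (SE 0.085 in the NAc and 0.11 in the SVZ). In the DG the log2 fold change was 0.03 (SE 0.13), with 41.8 to 60.5 CPM in Sal and 49.6 to 53.9 CPM in METH samples. The sign of Gclc was thus opposite to that of Nfe2l2 and Nqo1 in the CA, and in no region was Gclc higher in METH at an unadjusted p under 0.05.

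With the design used throughout, Gclm stood at no unadjusted p under 0.05 in any region. Its largest difference was that of the SVZ (log2 fold change 0.23, SE 0.33, FDR = 0.979 in edgeR), beside 0.05 (SE 0.16) for the NAc samples, 0.05 (SE 0.13) for the DG and -0.05 (SE 0.090) for the CA. In the SVZ its level spread widely within each group, with 40.0, 17.4, 21.2 and 15.6 CPM in Sal and 17.6, 33.7, 25.1 and 32.5 CPM in METH samples. The 3 highest samples were Sal replicate 1, METH replicate 2 and METH replicate 4, the same 3 in which the sum of 7 oligodendrocyte markers was highest. That sum was 19457, 4004, 9542 and 7605 CPM in the SVZ Sal samples and 9773, 26768, 8810 and 28237 CPM in the SVZ METH samples. All 7 markers had a positive log2 fold change in the SVZ (median 0.83), none at an unadjusted p under 0.05. When SVZ Sal replicate 1, the highest Gclm sample, was left out, the log2 fold change of Gclm was 0.60 (FDR = 0.281 in edgeR), at an unadjusted p under 0.05. With 2 or 4 RUVr factors, which are unwanted factors estimated from the residuals, it was 0.27 and also under that threshold, as were 20.1% and 24.5% of all genes in those SVZ fits. The part of this mixture in the Gclm values was not tested.

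Txnrd1 encodes the cytosolic thioredoxin reductase, which uses NADPH to reduce thioredoxin. It was the steadiest member, with 56.7 to 79.1 CPM over all 32 samples and a coefficient of variation of 7.89%, against 27.3% for Hmox1 and 25.3% each for Nqo1 and Gclm. METH samples differed from Sal by 0.06 (NAc), -0.11 (DG), 0.02 (CA) and -0.05 (SVZ) on the log2 scale, with FDR from 0.756 to 0.999 in edgeR. The 95% intervals bounded any higher level in METH at 1.21-fold (NAc), 1.11-fold (DG), 1.15-fold (CA) and 1.12-fold (SVZ).

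Of the enzymes that act on superoxide and peroxide, none stood at an unadjusted p under 0.05 in any region with all samples and the same design. Sod1, the cytosolic copper-zinc superoxide dismutase, had log2 fold changes of -0.07 (NAc), -0.18 (DG), 0.00 (CA) and 0.03 (SVZ). The DG value (SE 0.13, FDR = 0.634 in edgeR, p = 0.200 in the exact permutation test) came from 93.6, 95.4, 112 and 78.1 CPM in Sal and 80.9, 70.5, 88.1 and 91.6 CPM in METH samples. The highest of these was Sal replicate 3, the DG library with striatal markers, and without it the log2 fold change was -0.08. Sod2, the mitochondrial manganese enzyme, had log2 fold changes of -0.01, -0.09, -0.09 and 0.11 in the NAc, DG, CA and SVZ. In the SVZ it was 196, 126, 128 and 105 CPM in Sal and 94.7, 172, 145 and 179 CPM in METH samples, and its 3 highest samples were those 3 in which Gclm and the oligodendrocyte sum were highest. Leaving out 1 SVZ sample gave log2 fold changes of 0.002 to 0.31 for Sod2. Cat, the peroxisomal catalase, had log2 fold changes of -0.04, 0.16, -0.13 and 0.22 in the same order, with FDR from 0.730 to 0.999 in edgeR. Its level was 48.2 to 82.7 CPM over the 32 samples, and its 3 highest SVZ samples were the same 3 again. Cat passed an unadjusted p under 0.05 in the SVZ with 2 or 4 RUVr factors (log2 fold change 0.21 in both), and in the CA without METH replicate 2 (-0.22). Its SVZ value was 0.12 to 0.35 when 1 SVZ sample was left out.

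Markers of other cells are given here for the same samples. The sum of 7 astrocyte markers was 3157 to 3389 CPM in NAc Sal and 3553 to 5200 CPM in NAc METH samples, and 2844 to 3776 against 4079 to 4421 CPM in the DG, without overlap in either region. In the CA it was 3382 to 4434 CPM in Sal and 4016 to 4775 CPM in METH samples, and in the SVZ 3230 to 3796 against 3540 to 3903 CPM. Of the 7 astrocyte markers, 2 were higher in METH at an unadjusted p under 0.05 in each of the NAc and DG, and 1 in each of the CA and SVZ. In the CA so were 2 of 3 endothelial and 1 of 7 microglial markers, and in the NAc 2 of 7 microglial markers, C1qb (log2 fold change 0.53) and C1qa (0.21), and 1 of 2 choroid plexus markers. In the DG so were Prox1 (1.59), 1 of 4 dentate granule neuron markers, and Nr3c2 (1.34), 1 of 3 CA pyramidal neuron markers. Lower at that threshold were Dsp in the CA (-1.25), a dentate granule neuron marker, and 1 of 3 ependymal markers in the SVZ. The dentate granule neuron sum in the DG was 104 to 286 CPM in Sal and 95.2 to 516 CPM in METH samples. Of the 4 pan-neuronal markers, 1 was lower in the CA at that threshold, and their sum there was 2916 to 3547 CPM in Sal and 2252 to 3221 CPM in METH samples. The 7 oligodendrocyte markers all had negative log2 fold changes in the CA (median -0.29, none at an unadjusted p under 0.05), with sums of 3238 to 7019 CPM in Sal and 2473 to 8758 CPM in METH samples. All 5 medium spiny neuron markers had negative log2 fold changes in the NAc, DG and SVZ (medians -0.73, -2.24 and -1.24). In the CA all 5 were positive (median 0.72). All 5 choroid plexus markers were positive in the DG and SVZ (medians 1.43 and 2.98), and the 3 tested in the CA were negative (median -2.58). In those regions none of these markers stood at an unadjusted p under 0.05. The part of these cells in the values of Nfe2l2, Nqo1 and Gclc, and in those of the DG, NAc and SVZ genes given below, was not tested.

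**Figure D2:**
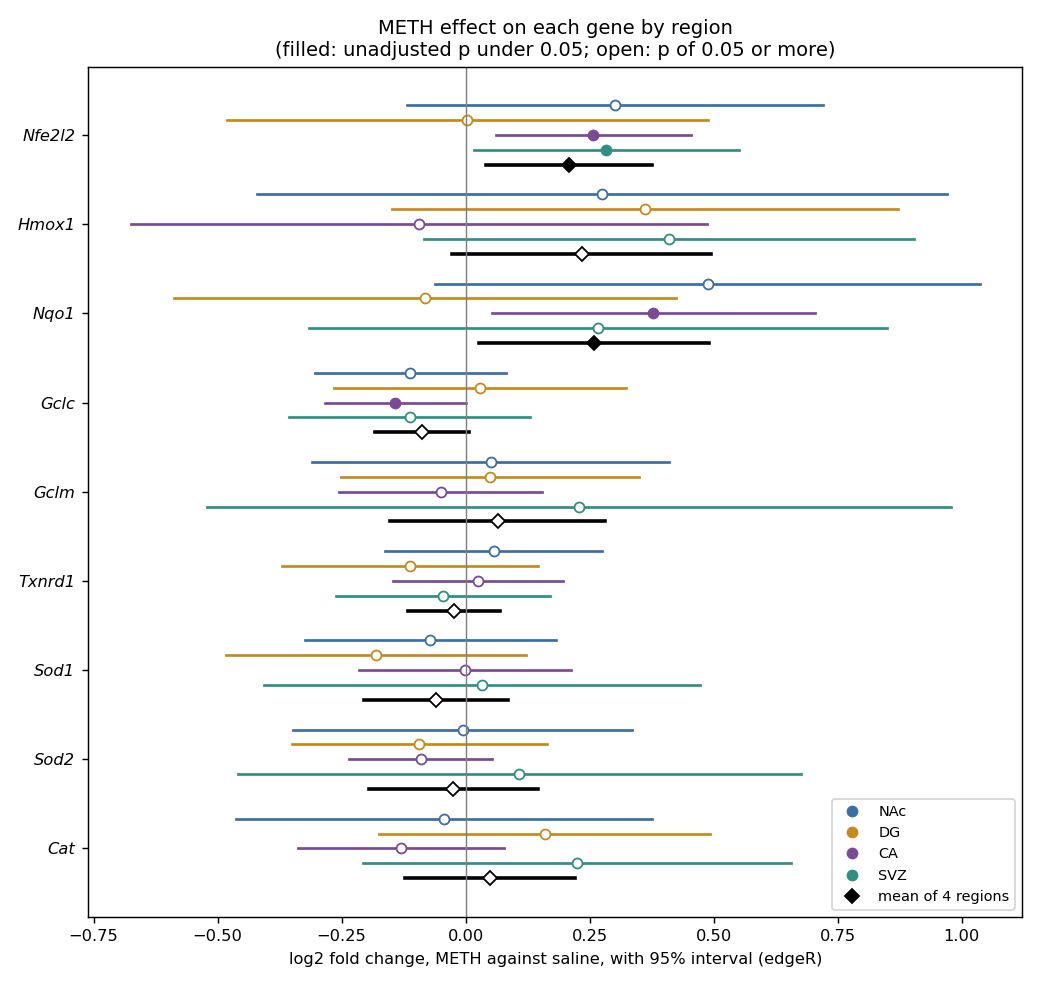
Log2 fold change of METH against Sal (horizontal axis) with its 95% interval from edgeR for each gene in each region (circles) and as the mean over the 4 regions (black diamonds). Filled symbols mark an unadjusted p under 0.05, which are Nfe2l2 in the CA, the SVZ and the mean, Nqo1 in the CA and the mean, and Gclc in the CA.

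To ask for an effect of METH shared by the regions, the mean of the 4 regional differences was tested in 1 fit of all 32 samples. This fit and the exact permutation test take the libraries as independent, although the regions came from the same brains. No gene passed an FDR under 0.01 in edgeR (0% of 16122 genes, against 3 genes and 0 members in DESeq2), and 7.83% passed an unadjusted p under 0.05, as did 2 of the 9 members. Nfe2l2 was 1.15-fold higher in METH on average (log2 fold change 0.21, SE 0.082, 95% interval 0.04 to 0.38, FDR = 0.565 in edgeR, p = 0.0144 in an exact permutation test within regions). Its fitted difference was above 0 in each of the 4 regions, though that of the DG was 0.00. Nqo1 was 1.20-fold higher on average (log2 fold change 0.26, SE 0.11, 95% interval 0.03 to 0.49, FDR = 0.593 in edgeR, p = 0.0584 in the exact permutation test). Without NAc METH replicate 3 the mean difference of Nqo1 was 0.20, no longer at an unadjusted p under 0.05, and that of Nfe2l2 was 0.17, still under it. For Nqo1 that threshold was also missed without NAc Sal 1, DG METH 3, CA Sal 4, SVZ Sal 3, SVZ METH 3 or SVZ METH 4. In limma voom with the library number as a random block, which for replicates 1 and 2 of the DG joins libraries of opposite treatment, the estimated correlation within a number was 0.012. There the mean difference of Nfe2l2 was 0.21 (FDR = 0.643), still at an unadjusted p under 0.05, and that of Nqo1 was 0.24 (FDR = 0.729), just above that threshold. Without the block limma voom put Nqo1 just under it, at the same 0.24. Hmox1 had a mean difference of 0.23 on the log2 scale (FDR = 0.675 in edgeR, p = 0.132 in the exact permutation test) and Gclc of -0.09 (FDR = 0.666 in edgeR, p = 0.0458 in the exact permutation test). Leaving out 1 sample gave 0.14 to 0.29 for Hmox1, at an unadjusted p under 0.05 in 5 of these fits. The other 5 members had mean differences of -0.06 to 0.06 with FDR from 0.839 to 0.948 in edgeR. The median of the members was 0.05, beside 0.01 over all genes tested. In the regions it was 0.05, 0.00, -0.05 and 0.22 in the NAc, DG, CA and SVZ, beside 0.03, -0.01, 0.01 and 0.02 over all genes.

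Whether METH acted differently in the regions was tested as an interaction in the same fit. At an FDR under 0.01 stood 0 genes in edgeR (0% of 16122) and 26 in DESeq2, 0 members among them, and 7.74% of genes but 0 of the 9 members had an unadjusted p under 0.05 (FDR in edgeR from 0.939 for Nqo1 to 0.996 for Gclm). Of the 54 pairwise differences between regions, for which no share of all genes is given here, 0 stood at an unadjusted p under 0.05. The nearest was the METH effect on Nqo1 in the NAc minus that in the DG, which was 0.55 on the log2 scale (FDR = 0.623 in edgeR). With the library number as a random block 0 members stood at an unadjusted p under 0.05 in the interaction, where 6.33% of genes did. Gclm did without SVZ Sal replicate 1, where 14.5% of genes did, Cat did with 2 RUVr factors (18.3% of genes), and Gclm and Cat did with 4 RUVr factors (26.2% of genes). The values of Nfe2l2 and Nqo1 that passed this threshold in the CA and not in the DG are therefore not shown to differ between these regions.

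Beside the members, 67 other genes of the same defence were listed and 63 had enough counts in each region to be tested, grouped as regulators of NRF2, glutathione enzymes, thioredoxins and peroxiredoxins, haem and iron handling, NADPH supply and detoxification, and other oxidant defence. None was called in any region by edgeR with the design used throughout. Under an alternative Slc7a11 in the DG reached an FDR of 0.00995. In the DG 217 genes were at an FDR under 0.01 in DESeq2 and 125 with 4 RUVr factors. Sesn1 in the CA reached 0.00939 under an alternative, with log2 fold changes of -0.54 to -0.37 over all alternatives. In the CA 14 genes were at an FDR under 0.01 in DESeq2 and 185 with 4 RUVr factors. At an unadjusted p under 0.05, 5 of the listed genes were higher and 1 lower in METH in the NAc. In the DG 6 were higher and 1 lower, in the CA 4 and 2, and in the SVZ 2 and 0. These are 6, 7, 6 and 2 of 63 genes, beside the shares of all genes given above. In the CA the 12 regulators of NRF2 held 2 that were higher and 1 that was lower. Bach2, which competes with NRF2 for its partners and sites, was 9.74, 10.1, 9.01 and 9.50 CPM in Sal and 11.2, 12.2, 12.9 and 13.6 CPM in METH samples (log2 fold change 0.38, SE 0.10, FDR = 0.669 in edgeR). Btrc, the gene of a ubiquitin ligase subunit that can mark NRF2 for degradation, was 142, 149.6, 145 and 139 CPM in Sal and 122, 121, 123 and 128 CPM in METH samples (log2 fold change -0.22, SE 0.061, FDR = 0.669). Neither gene's groups overlapped, and both kept an unadjusted p under 0.05 without each CA sample in turn. Btrc was also lower in METH in the NAc without overlap (159.8, 145, 149.9 and 132 against 117, 114, 126 and 128 CPM, log2 fold change -0.25, SE 0.084, FDR = 0.999). Mafk, a small MAF partner of NRF2 that was chosen after its values were seen, was the other regulator that was higher in the CA (0.36, SE 0.15, FDR = 0.687). Maff, a further MAF gene, had a log2 fold change of 0.72 (SE 0.27, FDR = 0.999) in the NAc at a level of only 0.609 to 1.80 CPM. Keap1 itself was at an unadjusted p under 0.05 in no region.

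In the DG the glutathione list held the pathway gene with the smallest p in edgeR. Slc7a11 encodes the cystine transporter that supplies cysteine for glutathione, and it was 130.2, 104, 109 and 123 CPM in Sal and 242, 187, 139 and 183 CPM in METH samples. All METH samples were above all Sal samples, with a log2 fold change of 0.70 (SE 0.16, 95% interval 0.33 to 1.07, FDR = 0.181 in edgeR). Without replicates 1 and 2 of both DG groups, whose numbers go against their labels, it was 0.45 and not at an unadjusted p under 0.05. In that fit of 2 against 2 samples Gsr, Txn1, Ephx1 and Ftl1 also missed this threshold, with log2 fold changes of 0.36, 0.52, 1.01 and -1.52, while Msrb1 (0.66) and Me1 (0.84) passed it. Gsr, glutathione reductase, was higher with a log2 fold change of 0.29 (SE 0.10, FDR = 0.298). Txn1, thioredoxin, was 23.2, 24.3, 23.9 and 17.0 CPM in Sal and 31.6, 26.1, 28.7 and 30.6 CPM in METH samples (0.42, SE 0.12, FDR = 0.243), and Msrb1, a methionine sulfoxide reductase, also did not overlap (0.45, SE 0.15, FDR = 0.273). Me1, malic enzyme, which yields NADPH, had a log2 fold change of 0.58 (SE 0.20, FDR = 0.294). For Ephx1, microsomal epoxide hydrolase, it was 0.74 (SE 0.27, FDR = 0.316). The groups of Ephx1 did not overlap (p = 0.0286 in the exact permutation test), with METH replicate 3 far highest at 43.7 CPM. Without that library its log2 fold change was 0.37, still at an unadjusted p under 0.05, which was lost without Sal replicate 1, 2 or 3. Ftl1, ferritin light chain, was at 3.54, 6.44, 1.83 and 7.96 CPM in Sal and 1.80, 1.95, 1.98 and 1.45 CPM in METH samples (log2 fold change -1.44, FDR = 0.254 in edgeR). Ftl1 has near-identical copies in the genome, so its counts are uncertain.

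In the NAc 3 of 6 genes of other oxidant defence were higher at an unadjusted p under 0.05. Mt3, the metallothionein of brain, was 118, 129, 109 and 141 CPM in Sal and 158, 151, 141 and 163 CPM in METH samples, without overlap (log2 fold change 0.33, SE 0.11, FDR = 0.999 in edgeR). It did not overlap in the CA either, with 149.7, 121, 167 and 145 CPM in Sal and 173, 191, 181 and 198 CPM in METH samples (0.35, SE 0.10, FDR = 0.669). Mt2A, a metallothionein induced by metals and stress, was 6.01, 7.17, 5.39 and 7.08 CPM in Sal and 22.9, 16.6, 3.74 and 21.2 CPM in METH samples of the NAc. The 3 METH samples other than replicate 3 were above all Sal samples, and replicate 3, in which Nfe2l2, Nqo1 and Hmox1 were highest, was below them. The log2 fold change of Mt2A was 1.34 (SE 0.46, FDR = 0.999 in edgeR), and 1.67 (FDR = 0.0868) without that library. Sod3, extracellular superoxide dismutase, was the third gene (0.49, SE 0.18, FDR = 0.999) and was chosen after its values were seen, and Msrb1 was higher by 0.38 (SE 0.15, FDR = 0.999). In the CA Gpx3, a secreted glutathione peroxidase, was higher (0.40, SE 0.17, FDR = 0.688) and Sesn1, a sestrin, lower (log2 fold change -0.45, SE 0.13, FDR = 0.669). In the SVZ the 2 genes were Prdx4, the peroxiredoxin of the endoplasmic reticulum (0.60, SE 0.24, FDR = 0.979), and Ftl1 (0.55, SE 0.23, FDR = 0.979). Leaving out 1 SVZ sample gave 0.32 to 0.71 for Prdx4. An unadjusted p under 0.05 held without each sample of the region in turn for Btrc and Mt3 in the NAc and CA, for Slc7a11, Txn1, Msrb1 and Ftl1 in the DG, and for Bach2 and Sesn1 in the CA. The other named genes lost it without at least 1 sample, Mt2A without METH replicate 1 alone. With the sequencing run as a covariate Mt3 lost it in the NAc and CA, and Btrc in the NAc. Mt3 also lost it in both regions in 1 fit of all 32 samples, and Btrc in the NAc with the replicate block.

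**Figure D3:**
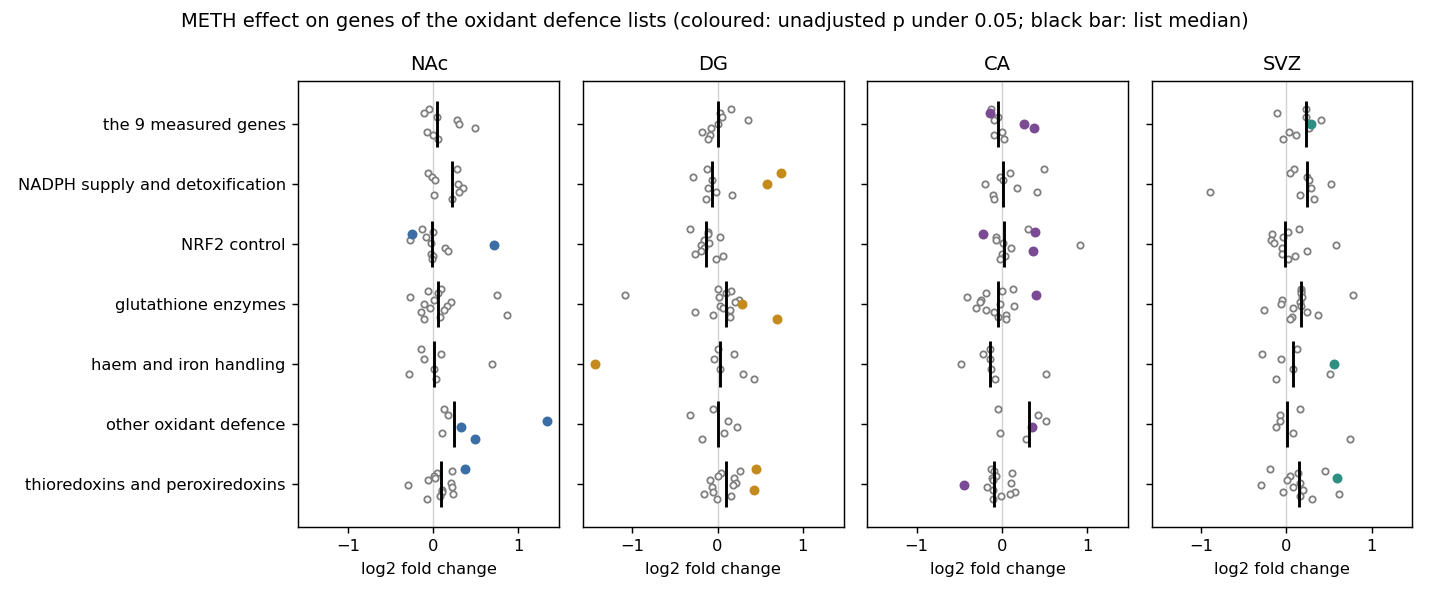
Log2 fold change of METH against Sal (horizontal axis) of each gene of the lists in the 4 regions, with the list's median as a black bar and genes at an unadjusted p under 0.05 coloured. Slc7a11 in the DG (0.70) and Mt2A in the NAc (1.34) lie to the right of their lists, and Ftl1 in the DG (-1.44) to the left.

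Levels between genes are compared per kilobase of exon, as the mean over all 32 samples. Sod1 was highest at 153 CPM per kilobase, followed by Sod2 at 65.1, Cat at 24.2, Txnrd1 at 20.2, Gclc at 18.0 and Gclm at 14.3. Nfe2l2 (9.37), Nqo1 (5.01) and Hmox1 (2.34) were the lowest 3.

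**Figure D4:**
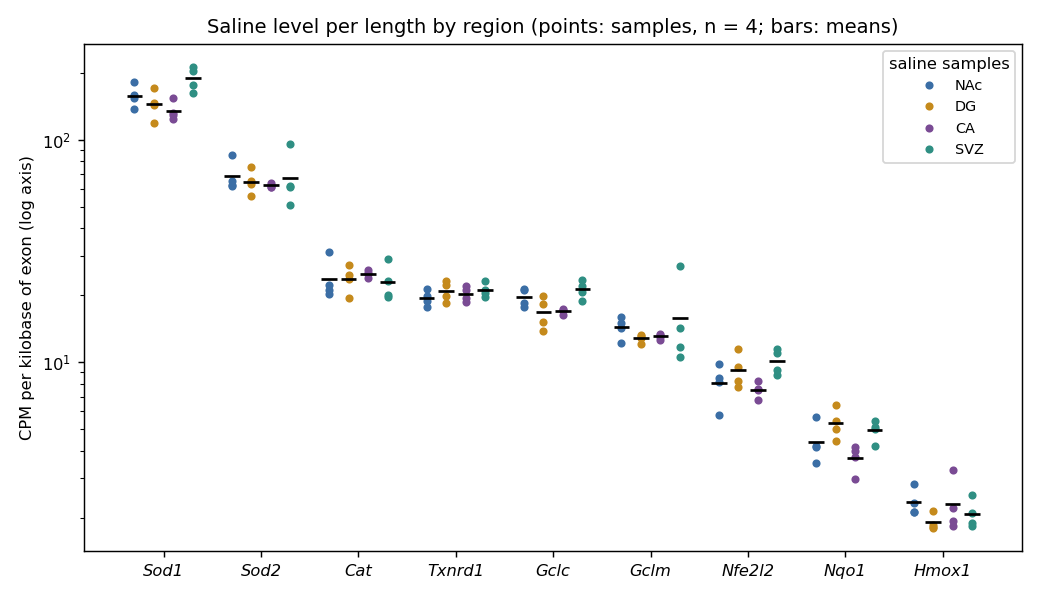
Level per kilobase of exon (CPM per kilobase, log axis) of each gene in the 4 Sal samples of each region (points) with the mean as a bar. The genes are ordered by level, from Sod1 to Hmox1, and the points of Cat, Txnrd1, Gclc and Gclm overlap.

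Without METH, the level in the 16 Sal samples was compared between regions. No gene passed an FDR under 0.01 in edgeR (0% of 15515 genes, against 1495 genes and 0 members in DESeq2), 26.7% of genes had an unadjusted p under 0.05, and so did 3 of the 9 members, Sod1, Gclc and Nqo1. Sod1 stood at 139, 115, 134 and 106 CPM in the SVZ and at 86.6, 101, 81.0 and 84.3 CPM in the CA, without overlap. Its mean was highest in the SVZ (124 CPM), followed by the NAc (103), the DG (94.8) and the CA (88.1), with FDR = 0.0601 in edgeR. The CA was below the SVZ with a log2 difference of -0.53 (SE 0.13, FDR = 0.0182 in edgeR, p = 0.0286 in the exact permutation test), while no neighbours in this order differed at an unadjusted p under 0.05. Gclc was 64.5 CPM on average in the SVZ, 59.7 in the NAc, 51.5 in the CA and 51.0 in the DG (FDR = 0.0924). Of its neighbours only the NAc and CA did not overlap (p = 0.0286 in the exact permutation test, FDR = 0.207 in edgeR). The CA was below the SVZ in Gclc by a log2 difference of -0.37 (SE 0.11, FDR = 0.0461 in edgeR, p = 0.0286 in the exact permutation test). For the DG against the SVZ it was also -0.37 (SE 0.11, FDR = 0.137 in edgeR, p = 0.0571 in the exact permutation test). Nqo1 was 8.41 CPM in the DG, 7.80 in the SVZ, 6.92 in the NAc and 5.87 in the CA (FDR = 0.170), with the DG above the CA by 0.53 on the log2 scale (FDR = 0.482 in edgeR, p = 0.0286 in the exact permutation test). Nfe2l2 had the order SVZ (23.2 CPM), DG (21.3), NAc (18.6) and CA (17.3), with FDR = 0.225 over the regions, and its neighbours did not differ beyond their spread. The CA was below the SVZ in Nfe2l2 without overlap, by a log2 difference of -0.46 (SE 0.17, FDR = 0.0814 in edgeR, p = 0.0286 in the exact permutation test). The unadjusted p of Nqo1 over the regions was no longer under 0.05 with TMM normalization, without a low-count filter, in the count matrix of the series, or in 10 of the 16 fits without 1 Sal sample, and it stayed under it without NAc replicates 1 or 2, DG replicates 1 or 4, CA replicate 2 or SVZ replicate 3.

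The other 5 members showed no regional difference at an unadjusted p under 0.05. Mean Sal levels ran from 19.0 CPM in the DG to 23.6 in the SVZ for Gclm, from 66.6 in the NAc to 72.2 in the SVZ for Txnrd1, and from 129 in the CA to 142 in the NAc for Sod2. They ran from 58.4 in the SVZ to 63.3 in the CA for Cat, and from 2.98 in the DG to 3.67 in the NAc for Hmox1. In all, 8 of 54 pairs of member and region pair stood at an unadjusted p under 0.05, and 0 at an FDR under 0.01. The share of all genes past that unadjusted threshold is not given here for these pairwise tests. Whether the members passed it more often than other genes was therefore not tested. By file name the SVZ libraries formed a sequencing run of their own, and they had the highest median depth of the 4 regions. Region and run, as inferred from these names, cannot be told apart for the SVZ.

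For each member the genes with the most similar pattern were sought among 14449 genes, as Pearson's r of log2(CPM + 1) over the 32 samples after subtracting the mean of each group. These values describe libraries that share run, depth and tissue mixture, and no test is attached. Nfe2l2 was most like Cd82 (0.85), Adgrg2 (0.85) and Slc10a7 (0.84), and Nqo1 like Nat8f5 (0.83), Hspb8 (0.83) and Itpkb (0.78). Hmox1 was most like Prkaa1, Phka1 and Rida (0.75 each). Gclc was most like AC130970.1 (0.74), Mtx3 (0.72) and Ino80c (0.65), while Gclm was most like Immt (0.93), Capn2 (0.91) and Pink1 (0.91). Txnrd1 was most like Cct2 (0.72), Pgrmc2 (0.71) and Fam118a (0.69), and Sod1 like Eef1b2 (0.84), Timmdc1 (0.82) and Hspa9 (0.81). Sod2 was most like Bcat1 (0.95), Tmx2 (0.94) and Msantd4 (0.93), and Cat like Cd164 (0.88), Edil3 (0.87) and Neo1 (0.87). None of the members was among the 3 nearest genes of another. Between members r was highest for Gclm with Sod2 (0.86), followed by Sod1 with Sod2 (0.71), Nqo1 with Sod1 (0.69) and Nfe2l2 with Cat (0.69), and it was lowest for Gclc with Txnrd1 (-0.11).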

How the data were processed

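RNA was rRNA-depleted and sequenced in 32 rat brain samples. The authors deposited raw counts of read pairs per gene and sample, made with cutadapt 2.7, STAR 2.5.2b and featureCounts 1.6.3 on rn6 (FastQC 0.11.4), without strand and with a mapping quality filter. File headers name the Ensembl release 95 annotation, while the methods name that of UCSC. A count matrix of 14713 genes served only as an alternative. Where FDR is given, edgeR 4.0.16 (R 4.3.3) was used: quasi-likelihood tests on upper-quartile normalized counts after filterByExpr, 8 samples per region, or 32 samples for the mean effect and the interaction, or 16 Sal samples for regions. P-values were Benjamini–Hochberg adjusted over all genes tested. Called means an FDR under 0.01 and, within a region, a fold change above 1.5. The 4 samples of each group came from the labels, and the depth was 11094002 to 21869773 counts per sample. Levels are CPM, computed here. The step was tested on simulated counts with the same dispersion for every gene. That test does not show how small a change these samples could reveal.

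The members and lists were chosen with earlier results of these data known. All members are named, with up to 2 genes of each list and region by smallest p under 0.05, and the 3 genes most like each member. Alternatives were TMM, DESeq2 1.42.0, limma 3.58.1 voom for Sal regions, no low-count filter, 1 fit of all samples, a replicate block, the sequencing run, 2 or 4 RUVr factors (written anew after the published method, as the number used is not given in the sources used here), the count matrix, summed or omitted libraries of doubtful number, an FDR under 0.05, and leaving out each sample. An exact permutation test of mean log2 CPM, with samples permuted within a region, and limma voom with the library number as a random block or without it were added after seeing the data. Python 3.11.15, pandas 2.3.3 and matplotlib 3.10.9 served for tables and figures. Promoter windows came from RefSeq (GRCr8), whose start sites may differ from those of rn6.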

Additional observations from a re-analysis of the deposited data

Results flagged for a closer look

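In 5 of 72 groups of 4 samples, 1 sample of a member lay so far from the other 3 that its gap exceeded the 95% critical value of Dixon's ratio, which chance alone gives in about 1 in 20 groups. Nfe2l2 was 28.4 CPM in NAc METH replicate 3, where the nearest METH sample had 21.3 CPM. Sod2 was 168 CPM in the same library, with the nearest at 133 CPM, and this is the NAc library with few medium spiny neuron markers and an oligodendrocyte sum of 12890 CPM against 6294 to 7211 CPM in the other NAc METH samples. Nfe2l2 was 28.9 CPM in DG METH replicate 3, with the nearest at 19.6 CPM, and the choroid plexus sum of that library was 5866 CPM against 8.60 to 28.3 CPM in the other DG METH samples, and its oligodendrocyte sum 14842 CPM against 3075 to 8985 CPM. Sod2 was 176 CPM in NAc Sal replicate 2, with the nearest at 135 CPM. Hmox1 was 3.35 CPM in DG Sal replicate 2, with the nearest at 2.90 CPM, a gap of a few reads. The part of library composition in these values was not tested.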

How the results depend on the processing

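Of 1044 alternative values of the METH differences of the members, 51 had the other sign and 0 of these stood at an unadjusted p under 0.05. The sign held under every alternative for 21 of 36 regional values and for 8 of 9 mean effects (the exception was Sod2). The single one of these past an FDR of 0.05 was the mean effect of Nfe2l2 with 4 RUVr factors (FDR 0.0146), and its unadjusted p was under 0.05 in all 43 alternatives, while that of Nqo1 was in 34 of 43. Nfe2l2 in the CA kept an unadjusted p under 0.05 in 17 of 18 alternatives, Nqo1 in 13, Gclc in 5, and Nfe2l2 in the SVZ in 8.

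Genes called (0 in each region) became 3, 183, 10 and 2 with DESeq2 in the NAc, DG, CA and SVZ, 125 in the DG and 101 in the CA with 4 RUVr factors, and 1 in the DG at an FDR under 0.05 without a fold limit. Members at an unadjusted p under 0.05 were 1 in the NAc, 0 in the CA and 0 in the SVZ in 1 fit of all 32 samples. No share of all genes is given here for that fit. With 2 RUVr factors these members were 2 in the NAc and 4 in the SVZ (13.7% and 20.1% of all genes). With 4 RUVr factors they were 2 and 3 (19.5% and 24.5%). In the SVZ they were 0 without a low-count filter (2.38%) and 0 with the METH libraries of 1 number summed (1.09%). At an FDR under 0.05 there were 0 in the CA and 0 in the SVZ. Leaving out 1 sample gave 0 to 1 members at that unadjusted p in the NAc (2.22% to 5.08% of all genes). In the DG it gave 0 to 1 (8.16% to 13.9%). It gave 1 to 3 in the CA (4.2% to 11%) and 0 to 2 in the SVZ (0.984% to 16.4%). Between Sal regions, 1 member (Sod1, FDR 0.00388) was called with 4 RUVr factors, where 2923 of 15515 genes stood at an FDR under 0.01. An FDR under 0.05 there was also reached by Gclc, Nqo1 and Nfe2l2 with 4 RUVr factors, by Sod1, Gclc and Nfe2l2 with 2, by Sod1 and Gclc with DESeq2 and without DG Sal replicate 3, and by Sod1 in the count matrix. With the library number as a random block the estimated correlation between Sal libraries was 0.18. Sod1, Gclc and Nqo1 were again the members at an unadjusted p under 0.05, beside 26.2% of all genes. Nqo1 missed this threshold in 13 alternatives and Sod1 and Gclc in 0. The run as a covariate left 2 members at that unadjusted threshold in the DG (11% of genes) and took Ftl1 there from -1.44 to 0.011, but these values compare Sal replicate 3 alone with METH replicates 1 and 2 and test no effect of the run. The other causes were not tested.

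Same-numbered Sal and METH samples correlated at -0.78 to 0.42 and 12 of 16 Sal samples did not correlate best with their own number, so replicate numbers do not pair the samples. With the replicate block, 1 member stood at an unadjusted p under 0.05 in the CA (7.74% of all genes) and 0 in the SVZ (1.07%). Depth limits Hmox1 and Nqo1 most, at 31 to 113 and 56 to 266 reads per sample.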
